A study of Mus musculus with 29 samples.

Results

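The Ikaros zinc finger family comprises the transcription factors Ikaros (Ikzf1), Helios (Ikzf2), Aiolos (Ikzf3), Eos (Ikzf4) and Pegasus (Ikzf5). Its members were matched by gene symbol, and the family was chosen with earlier results of these data known. All 5 were listed once among the 24732 entries of the mouse mm9 expression tables and once among the 25588 entries of the mm10 tables. They were measured by RNA-seq of polyadenylated RNA in 8 libraries of B cell progenitors sorted by flow cytometry directly from C57BL/6 mice, with no treatment named in the labels. These libraries comprised 3 of wild-type pro-B cells (Pax5+/+), 2 of Pax5(-/-) cells and 3 from Pax5(+/+) Meox2-cre mice that were pooled at the age of 3 weeks. For the first 2 groups the age was not given in the sources used here. The study examined a PAX5-JAK2 fusion protein in B cell leukemia, and the comparison of Pax5-/- with Pax5+/+ cells serves to find genes whose expression depends on the B cell commitment factor Pax5.

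Several limits belong to these groups. The methods sorted both populations as B220+Kit+ cells but through different gates, which included the absence of CD2, IgM and IgD for pro-B cells and the presence of Ly6D for Pax5-deficient progenitors, so that genotype and sorting gate cannot be told apart. Meox2-cre expresses Cre recombinase from the Meox2 locus, which is active in the early embryo, and these animals served as controls. The labels name the Meox2-cre cells Pax5(+/+), whereas a sample table of the study lists a heterozygous Pax5 genotype for them. Their values were computed on another genome build with other software, and were therefore set beside the others without a test. The labels do not say that the libraries of a group came from separate mice, and p-values thus measure the spread between these libraries, which may be technical. In bulk RNA, fewer cells of a type and less RNA per cell cannot be told apart.

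Ikaros binds DNA through N-terminal zinc fingers that recognize a core of GGGAA, and the family members pair with each other through C-terminal zinc fingers. Ikaros is needed from the earliest lymphoid progenitors onwards and is frequently deleted in B cell leukemia, whereas Aiolos is known to increase as B cells mature and acts with Ikaros to silence the surrogate light chain genes after pre-B cell receptor signaling. Helios and Eos are best known from T cells, in particular regulatory T cells, and Pegasus is the most divergent and most broadly expressed relative. The proteins recruit the NuRD, Sin3, CtBP and BAF complexes to chromatin, and Ikaros and Aiolos are the substrates that cereblon marks for degradation in the presence of lenalidomide.

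In the mm9 build, Ikzf1 lies at chr11:11585006-11672929 on the plus strand. The other members lie on the minus strand, with Ikzf3 on the same chromosome at chr11:98326216-98407345, Ikzf2 at chr1:69577788-69732534, Ikzf4 at chr10:128067899-128083047 and Ikzf5 at chr7:138532166-138554035. These spans are of the GENCODE M1 annotation, and a level covers the exons of a gene as a whole, so that the isoforms of Ikaros with and without DNA-binding fingers were not separated.

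The RefSeq promoter table of GRCm38.p6 held 3 windows of 2 members, Ikzf1 and Ikzf5, but none of Ikzf2, Ikzf3 or Ikzf4. The 250 bases before each start are shown because both genes were expressed in all groups and because the core motif of Ikaros can be read in them. Capitals mark GGGAA and its reverse complement TTCCC, searched on both strands, and no matches overlapped.
Ikzf1, upstream start, chr11:11685675-11685924, plus strand: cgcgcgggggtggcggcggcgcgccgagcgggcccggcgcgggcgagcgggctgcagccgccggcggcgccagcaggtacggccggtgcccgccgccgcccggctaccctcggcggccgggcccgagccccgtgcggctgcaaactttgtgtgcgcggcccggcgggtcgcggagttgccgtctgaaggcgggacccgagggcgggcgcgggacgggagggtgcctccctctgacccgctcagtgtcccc
Ikzf1, downstream start, chr11:11689927-11690176, plus strand: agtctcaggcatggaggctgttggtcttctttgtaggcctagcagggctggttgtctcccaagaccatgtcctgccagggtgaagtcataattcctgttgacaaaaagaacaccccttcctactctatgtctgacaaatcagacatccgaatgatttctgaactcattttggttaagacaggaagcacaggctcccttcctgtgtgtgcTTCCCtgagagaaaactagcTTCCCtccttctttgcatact
Ikzf5, chr7:131410479-131410728, minus strand: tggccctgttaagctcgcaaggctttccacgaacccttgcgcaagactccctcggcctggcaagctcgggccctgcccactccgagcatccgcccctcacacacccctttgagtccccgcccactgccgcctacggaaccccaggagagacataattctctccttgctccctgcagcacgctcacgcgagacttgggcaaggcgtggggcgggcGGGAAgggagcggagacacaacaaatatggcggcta
The upstream Ikzf1 window was made of G and C at 82.0% and held no match, whereas the downstream Ikzf1 window had a GC content of 47.6% and held 2 matches, both as TTCCC. The Ikzf5 window, with a GC content of 64.0%, held 1 match. Of the 32851 promoter windows of this length in the table, 56.2% held at least 1 match and 21.2% at least 2, and the median GC content was 52.4%.

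The family level was set by Ikzf1. TPM values are scaled to gene length and library size, so that levels of different genes can be compared. The summed level of the 5 genes was 349 ± 23.4 TPM (SD, n = 3) for Pax5+/+ cells. It was 319.6 ± 7.09 TPM (SD, n = 2) for Pax5-/- cells and 436 ± 9.88 TPM (SD, n = 3) for Meox2-cre cells. Ikzf1 accounted for 89.4 ± 2.44%, 96.1 ± 0.393% and 87.6 ± 0.479% of these sums, and the plot of family shares shows this for each library. Ikzf3 contributed 6.19 ± 2.54% in Pax5+/+ and 8.82 ± 0.606% in Meox2-cre cells, but 0.161 ± 0.0394% in Pax5-/- cells. The share of Ikzf5 was 4.28 ± 0.625%, 3.64 ± 0.375% and 3.43 ± 0.106% in the same order of groups, whereas Ikzf2 and Ikzf4 stayed below 1% together in every library.

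**Figure D1:**
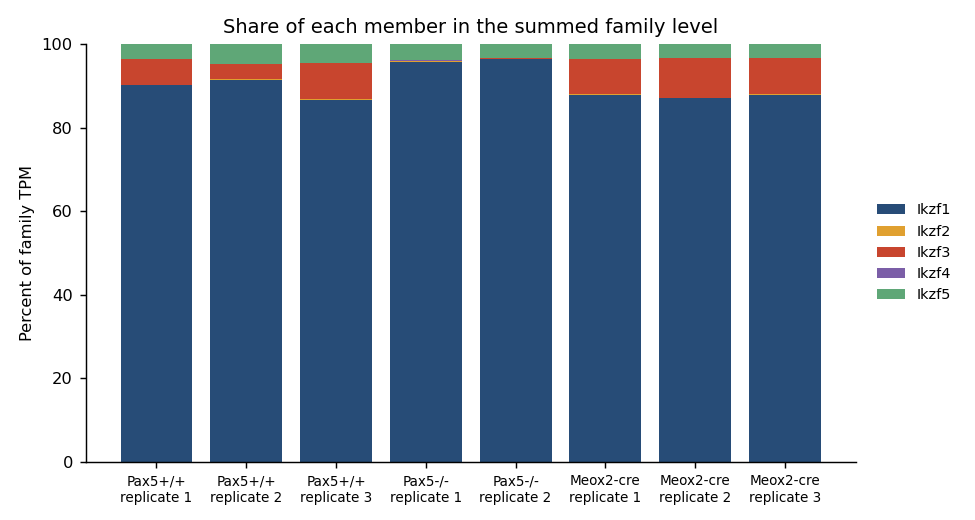
Percent of the summed TPM of the 5 Ikaros family genes contributed by each gene, in stacked bars for the 8 libraries. Ikzf1 takes 86.6% to 91.3% in the Pax5+/+ and 95.8% to 96.3% in the Pax5-/- libraries, and the band of Ikzf3 is almost absent from the latter.

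The order of the mean TPM levels was the same in Pax5+/+ and Meox2-cre cells: Ikzf1 came first, followed by Ikzf3, Ikzf5, Ikzf2 and Ikzf4. In Pax5+/+ cells the neighbours Ikzf3 and Ikzf5 were not separated, because Ikzf3 was the higher of the pair in only 2 of 3 libraries and their ranges overlapped, whereas in Meox2-cre cells Ikzf3 was higher in 3 of 3. In Pax5-/- cells the order was Ikzf1, Ikzf5, Ikzf3, Ikzf4 and Ikzf2, with Ikzf5 at 22.5 times the mean TPM of Ikzf3. The ranges of the other neighbours did not overlap within any group, but Ikzf2 and Ikzf4 were near the floor of detection. In Pax5-/- cells their ranges almost met, with the lower Ikzf4 value at 0.207 TPM and the higher Ikzf2 value at 0.200 TPM. The former may rest on as few as 5 reads, so the order of these 2 genes is not firm.

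**Figure D2:**
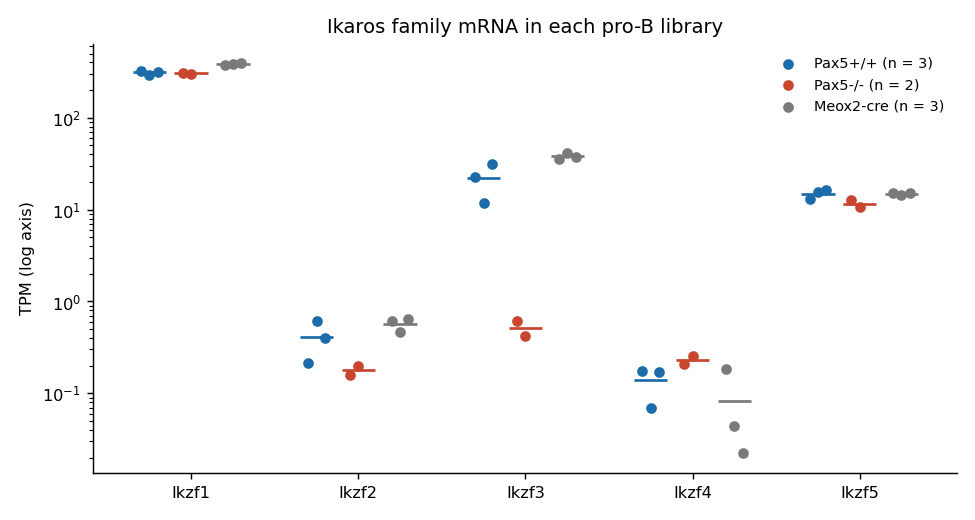
TPM on a log axis of the 5 genes in each library, with points for libraries and bars for the group means of Pax5+/+ (n = 3), Pax5-/- (n = 2) and Meox2-cre (n = 3) cells. Ikzf3 falls from 11.8 to 31.7 TPM in Pax5+/+ to 0.420 to 0.614 TPM in Pax5-/- libraries, whereas the points of Ikzf1 lie close together.

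The targeted gene was examined first. Pax5 was present at 342, 386 and 391 TPM in controls (Pax5+/+) compared with 43.0 and 39.1 TPM in the Pax5-/- mutants, which thus retained some RNA from the locus but did not overlap with the controls. The difference on the log2(TPM + 0.5) scale was -3.17 (SE 0.11, adjusted p = 3.1e-06, limma). In the 3 Meox2-cre libraries Pax5 ranged from 376 to 397 TPM. Relative depth, estimated from the steps between low values, spanned 0.855 to 1.54 across the 5 mm9 libraries, the shallowest and the deepest both being Pax5-/- libraries.

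Ikzf3, which encodes Aiolos, was the member that differed between the genotypes. It was expressed at 22.5, 11.8 and 31.7 TPM in controls (Pax5+/+) compared with 0.614 and 0.420 TPM in the Pax5-/- mutants. Every Pax5-/- library was below every Pax5+/+ library, and the lowest control was still far above the highest mutant value. The mean level was 22.0 ± 9.96 TPM (SD, n = 3) against 0.517 ± 0.137 TPM (SD, n = 2), which corresponds to 42.5-fold lower expression by the ratio of means. On the log2(TPM + 0.5) scale, which understates the change of a gene this low, Ikzf3 fell by 4.36 (SE 0.39, 95% interval -5.26 to -3.46, adjusted p = 0.000189, limma). With 2 Pax5-/- libraries, the interval rests on a spread moderated across genes.

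Of the 3 members that passed the filter of a mean above 1 TPM in a genotype (Ikzf1, Ikzf3 and Ikzf5), Ikzf3 alone was called lower in Pax5-/- cells by an adjusted p below 0.05, a change above 3-fold and a mean above 5 TPM. By the same rule 380 of all 12066 genes tested, or 3.15%, were called lower and 327, or 2.71%, higher. Ikzf3 ranked 42 among the 380 genes by the size of its log2 fold change. The direction and call of Ikzf3 were the same without each of the 5 libraries in turn, with log2 fold changes from -4.75 to -4.05. The smallest read numbers that give the deposited values of Ikzf3 were 388 to 1060 for controls compared with 17 and 21 for mutants, and the true numbers could be a common multiple of these.

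The spread of Ikzf3 among controls was wide. Its coefficient of variation was 45.3% over the Pax5+/+ libraries, against 5.26% for Ikzf1 and 11.3% for Ikzf5, and its highest value was 2.69 times its lowest. The 3 Meox2-cre libraries lay at 35.7, 41.7 and 37.8 TPM, with a coefficient of variation of 7.93%. All of them were above the highest Pax5+/+ library.

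Because Aiolos is known to increase with B cell maturation, genes of later B cell stages are given beside this result. Of 6 such genes (Cd2, Il2ra, Ms4a1, Fcer2a, Cr2 and Ighd), 5 were higher in every Pax5+/+ than in every Pax5-/- library and 1, Il2ra, was lower. Over all genes tested 37.4% were separated with every Pax5-/- library lower and 26.1% with every Pax5-/- library higher. Of the 6 genes, 4 passed the filter of the genes tested, whereas Fcer2a and Cr2 did not. The summed level of all 6 ranged from 40.7 to 74.1 TPM in Pax5+/+ and from 25.5 to 28.7 TPM in Pax5-/- cells. Most of each sum came from the immunoglobulin gene Ighd, at 31.5, 34.9 and 66.3 TPM against 23.0 and 21.0 TPM. Its log2 difference was -0.91 (adjusted p = 0.0453, limma). Cd2, whose protein was gated out of the pro-B cells, was present at 1.11, 1.41 and 2.14 TPM against 0 and 0.215 TPM, and Ms4a1 (CD20) at 6.40, 3.92 and 4.34 TPM against 0.288 and 0.279 TPM. Il2ra, encoding a chain of the interleukin-2 receptor, went the other way, from 1.06, 1.09 and 0.912 TPM to 5.22 and 3.83 TPM. The log2 differences were -1.75 for Cd2, -2.75 for Ms4a1 and 1.71 for Il2ra (adjusted p = 0.00657, 0.00036 and 0.002, limma). Cd2, Ms4a1, Il2ra and Ighd were named after their values were seen, and the part of the later B cell genes in the difference of Ikzf3 was not tested.

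Ikzf1, which encodes Ikaros, was the most abundant member in every library. It was expressed at 327, 294 and 314 TPM in controls (Pax5+/+) compared with 311 and 303 TPM in the Pax5-/- mutants. Both mutant values lay within the range of the controls. The means were 312 ± 16.4 TPM (SD, n = 3) and 307.0 ± 5.56 TPM (SD, n = 2), and the log2 difference was -0.02 (SE 0.09, 95% interval -0.24 to 0.20, adjusted p = 0.877, limma). The sign of the small difference turned under other scalings of the libraries. In each mm9 library more than 97% of the entries were lower than Ikzf1. In Meox2-cre cells Ikzf1 stood at 373, 382 and 389.8 TPM.

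Ikzf5, which encodes Pegasus, was expressed at 13.0, 15.4 and 16.2 TPM in controls (Pax5+/+) compared with 12.7 and 10.6 TPM in the Pax5-/- mutants. Both mutant libraries were below all controls, although the highest of them was close to the lowest control. The means were 14.9 ± 1.68 TPM (SD, n = 3) and 11.7 ± 1.46 TPM (SD, n = 2), and the log2 difference of -0.34 (SE 0.17, 95% interval -0.74 to 0.07, adjusted p = 0.166, limma) did not pass the threshold. With Ikzf3 and Ikzf5, 2 of the 3 members tested had all Pax5-/- libraries below all Pax5+/+ libraries. As this held for 37.4% of all genes tested, the separation of Ikzf5 is common in these data. The Meox2-cre libraries lay at 15.0, 14.6 and 15.3 TPM, within the range of the Pax5+/+ libraries.

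**Figure D3:**
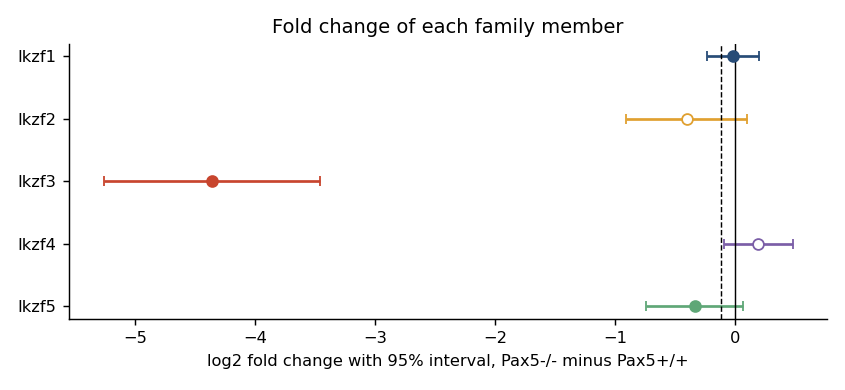
Log2 fold change of TPM + 0.5 with its 95% interval (limma) for the 5 members, Pax5-/- minus Pax5+/+. Filled points passed the filter, open points come from the fit without it, the solid line marks 0 and the dashed line the median of all genes tested, -0.12. Only the interval of Ikzf3, -5.26 to -3.46, excludes 0.

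Ikzf2, which encodes Helios, and Ikzf4, which encodes Eos, were near the floor of detection and did not pass the filter. Ikzf2 was listed at 0.215, 0.620 and 0.403 TPM in controls (Pax5+/+) compared with 0.157 and 0.200 TPM in the Pax5-/- mutants. These values correspond to as few as 16, 47 and 31 reads against 10 and 23 reads, or a common multiple. Although both mutant values were below all controls, the difference in a fit of 17368 genes without the filter was -0.40 (SE 0.20, 95% interval -0.91 to 0.10, adjusted p = 0.215, limma) and did not pass the threshold. In Meox2-cre cells Ikzf2 was at 0.607, 0.466 and 0.639 TPM.

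Ikzf4 was at 0.177, 0.0694 and 0.171 TPM in controls (Pax5+/+) compared with 0.207 and 0.252 TPM in the Pax5-/- mutants. Both mutant values were the higher ones, but the smallest read numbers behind them were 5 and 11 against 5, 2 and 5. The difference of 0.19 (SE 0.12, 95% interval -0.09 to 0.48, adjusted p = 0.286, limma, without the filter) did not pass the threshold. The Meox2-cre libraries held Ikzf4 at 0.182, 0.0442 and 0.0222 TPM, an 8.23-fold range within 1 group. T cell genes, among which Helios and Eos are best known, were low in these libraries as well. The summed level of Cd3d, Cd3e, Cd3g, Cd4, Cd8a, Cd5 and Foxp3 ranged from 8.86 to 13.2 TPM in Pax5+/+ and from 7.33 to 9.83 TPM in Pax5-/- cells, and 5 of the 7 genes were below 1 TPM in every mm9 library. The other 2, named after their values were seen, changed in opposite directions. Cd4 rose from 0.368, 0.522 and 0.712 TPM to 3.97 and 5.88 TPM (log2 fold change 2.38, SE 0.29, adjusted p = 0.000865, limma), and Cd5 fell from 12.2, 7.08 and 7.22 TPM to 2.93 and 3.01 TPM (log2 fold change -1.38, SE 0.27, adjusted p = 0.00664). Their part in the values of Ikzf2 and Ikzf4 was not tested.

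**Figure D4:**
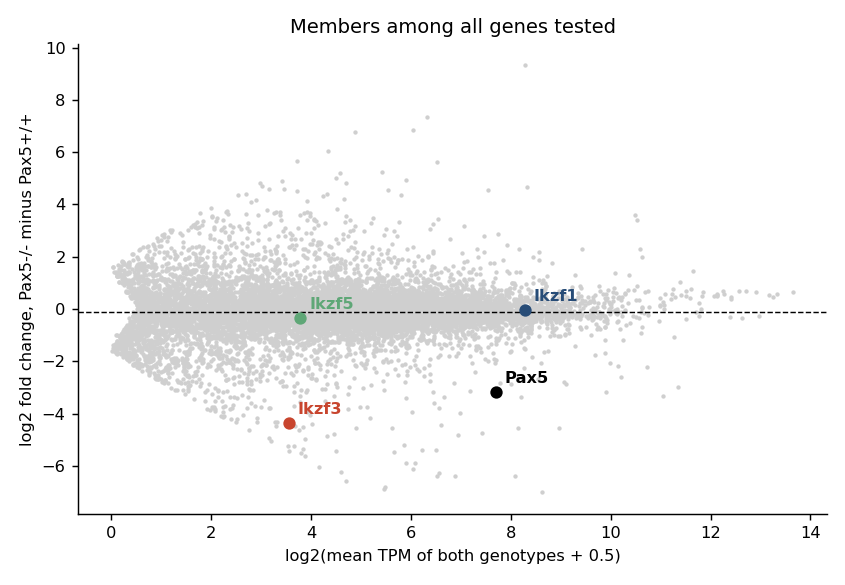
Log2 fold change (Pax5-/- minus Pax5+/+) against log2 of the mean TPM + 0.5 of both genotypes for the 12066 genes tested (grey), with Ikzf1, Ikzf3, Ikzf5 and Pax5 in colour and the median of all genes as a dashed line. Ikzf3 at -4.36 lies near the lower edge of the cloud, and Ikzf1 at -0.02 and Ikzf5 at -0.34 lie inside it.

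Ratios between members within a library depend little on how libraries were scaled where both members are well above the 0.5 TPM added to each value. This was not so for Ikzf3 in Pax5-/- cells, whose values were near 0.5 TPM. The log2 ratio of Ikzf1 to Ikzf5 was 4.60, 4.21 and 4.24 among controls compared with 4.56 and 4.77 among mutants, which overlapped. The mean ratio was 0.32 higher in Pax5-/- cells (exact two-sided permutation test, p = 0.3, adjusted p = 0.3 over 3 pairs). The pairs with Ikzf3 were added after its level was seen. The log2 ratio of Ikzf3 to Ikzf1 was -3.83, -4.59 and -3.29 in Pax5+/+ and -8.13 and -8.37 in Pax5-/- libraries, and that of Ikzf3 to Ikzf5 was 0.77, -0.38 and 0.95 against -3.56 and -3.60. Neither pair overlapped between the genotypes. The differences of -4.34 and -4.03 each had an exact permutation p = 0.1 (adjusted p = 0.15), where 0.1 is the smallest p that 3 against 2 libraries allow. Their size depended on the added value. With 0.1 TPM added they were -5.04 and -4.72, and with 1 TPM added -3.80 and -3.49.

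Beyond the family itself, the profile of each tested member over the 5 mm9 libraries was compared with those of all other genes outside the immunoglobulin and T cell receptor loci. Likeness was measured as the root mean square distance of centred log2(TPM + 0.5) values, as a description only. The genes nearest to Ikzf3 were Tmprss3, a membrane serine protease gene, at a distance of 0.23, Otub2, a deubiquitinase gene, at 0.31, and the microRNA entry Mir7240 at 0.32. Tmprss3 was at 30.2, 19.6 and 38.7 TPM in Pax5+/+ and at 1.64 and 0.910 TPM in Pax5-/- libraries, with the same library highest and the same lowest among the controls as for Ikzf3. Otub2 was at 54.2, 48.0 and 69.0 TPM against 2.27 and 1.59 TPM, and Mir7240 was listed at 0 in both Pax5-/- libraries. The genes nearest to Ikzf1 were Uba1, encoding the ubiquitin-activating enzyme, Smn1, encoding the survival motor neuron protein, and Aimp2, encoding a scaffold of tRNA synthetases, all at 0.02. For Ikzf5 they were Rad17, a DNA damage checkpoint gene, at 0.01, and the kinase genes Pip4k2c and Stk11, both at 0.03.

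The genes through which Ikaros proteins act were examined next. Over all genes tested 21.5% were lower and 15.6% higher in Pax5-/- cells at an adjusted p below 0.05, and the median log2 fold change was -0.12. Of the 14 NuRD genes, which encode a histone deacetylase and chromatin remodelling complex, 13 were tested, of which 3 were lower, 2 higher and 8 not past the threshold, with a median of -0.12. Mta3 rose from 77.9, 117 and 93.0 TPM to 233 and 244 TPM (log2 fold change 1.33, SE 0.17, adjusted p = 0.000913, limma). Mbd2, whose product binds methylated DNA, and Mta2 fell by 0.62 and 0.46 on the log2 scale (adjusted p = 0.00301 and 0.00687). Chd4, encoding the NuRD ATPase that binds Ikaros, was at 449, 455 and 428 TPM against 437 and 380.1 TPM and did not pass the threshold (adjusted p = 0.369), and neither did Hdac1 and Hdac2. Chd4, Hdac1 and Hdac2 were named after their values were seen.

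Of the 4 Sin3 and CtBP corepressor genes, 1 was lower and 1 higher, with a median of -0.21. Ctbp2 rose from 5.46, 3.98 and 4.18 TPM to 15.2 and 12.6 TPM (log2 fold change 1.52, SE 0.21, adjusted p = 0.00155), and Sin3a fell by 0.51 (adjusted p = 0.0115). Of the 8 BAF genes, 3 were lower and none was higher, with a median of -0.18. Smarca4, encoding the BAF ATPase Brg1, was at 1418, 1963 and 1499.9 TPM in Pax5+/+ and at 416 and 362 TPM in Pax5-/- libraries. These ranges were far apart, with a log2 fold change of -2.05 (SE 0.16, adjusted p = 9.3e-05), and Smarca4 was the only gene of the NuRD, Sin3, CtBP, BAF and cereblon lists past the 3-fold rule. Smarcc2 and Actl6a fell by 0.51 and 0.38.

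Of the 5 genes of the cereblon ubiquitin ligase, 1 was lower, none was higher, and the median was -0.17. Crbn, the substrate receptor for Aiolos and Ikaros, was at 12.2, 12.3 and 12.5 TPM against 10.9 and 11.0 TPM and did not pass the threshold (adjusted p = 0.406). It was named after its values were seen. Rbx1, encoding the RING subunit, fell by 0.34 (adjusted p = 0.0414). This call was lost under rescaling by median ratios and by quantiles and without any 1 of the 5 libraries. The counts of small changes depended on single libraries in the other lists too. The NuRD count of lower genes was 5 without Pax5+/+ replicate 1, and its count of higher genes was 1 without Pax5+/+ replicate 1 or 3. Leaving out either Pax5-/- library reduced the counts of lower NuRD, BAF and corepressor genes and of higher NuRD genes. The count of higher corepressor genes stayed the same whichever library was left out.

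Genes known as targets of Ikaros and Aiolos in B cell progenitors moved in both directions. All 15 were tested, of which 8 were lower, 3 were higher and 4 were not past the threshold in Pax5-/- cells, with a median of -0.52 beside -0.12 over all genes. Several of these genes are also pro-B markers or targets of other factors, and 4 of them (Igll1, Vpreb1, Rag1 and Il7r) were in the pro-B marker list as well. Pax5 itself is inactivated in this comparison, so effects of its loss and of lower Ikzf3 on these genes cannot be told apart. Flt3, encoding a receptor of early lymphoid progenitors, was at 11.1, 18.1 and 15.7 TPM in Pax5+/+ and at 327 and 388 TPM in Pax5-/- libraries (log2 fold change 4.55, SE 0.20, adjusted p = 9.3e-06). Blnk, encoding an adaptor of the pre-B cell receptor, fell from 808, 1154 and 955 TPM to 163 and 104 TPM (log2 fold change -2.88, SE 0.21, adjusted p = 8.3e-05). Vpreb1, encoding part of the surrogate light chain that Ikaros and Aiolos silence, fell from 1996, 2147 and 1914 TPM to 351 and 322 TPM (log2 fold change -2.58, SE 0.10, adjusted p = 5.7e-06).

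**Figure D5:**
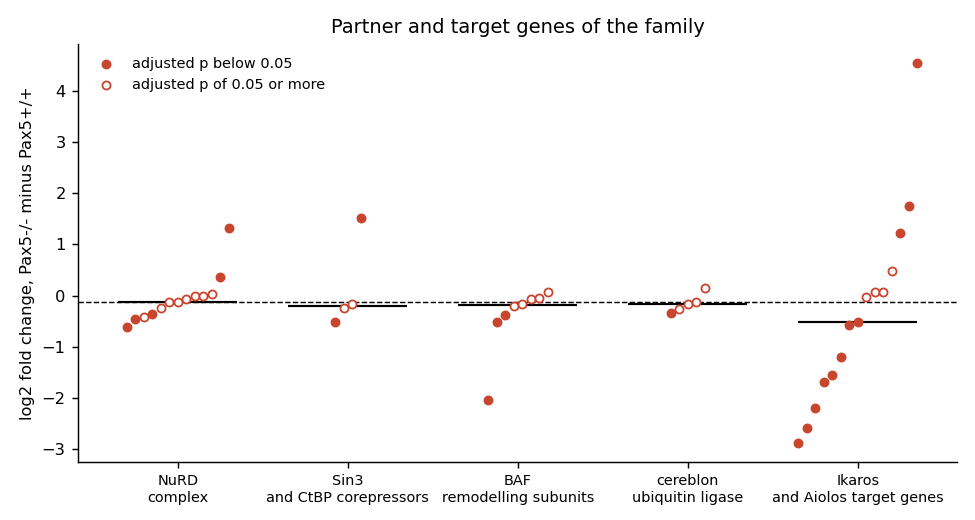
Log2 fold change (Pax5-/- minus Pax5+/+) of the tested genes in 4 partner lists and 1 target list, with filled points for an adjusted p below 0.05 (limma), short bars for list medians and a dashed line for the median of all genes, -0.12. Partner genes mostly lie near the dashed line apart from Smarca4 (-2.05), Mta3 (1.33) and Ctbp2 (1.52), whereas target genes spread from -2.88 to 4.55.

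In the sorted populations other lineages were also measured. In Pax5-/- against Pax5+/+ cells the summed levels were 47.0 to 52.3 against 7.46 to 21.7 TPM for 6 natural killer and innate lymphoid genes, 183 to 261 against 91.3 to 148 TPM for 5 plasmacytoid dendritic cell genes and 30.01 to 31.6 against 12.4 to 15.4 TPM for 5 stem cell genes. They were 5.57 to 8.81 against 15.3 to 45.3 TPM for 5 erythroid genes. Of these, the globin gene Hbb-b1, named after its values were seen, was listed at 0 in all 5 libraries and added nothing to the sum. This listed value does not by itself show that globin RNA was absent. The sums of 7 myeloid genes were 55.4 to 83.7 against 45.9 to 252 TPM. Beside these, the sums in Meox2-cre cells were 21.3 to 23.7 TPM for the natural killer and innate lymphoid genes. For the plasmacytoid dendritic, stem cell and erythroid genes they were 150 to 181, 12.1 to 13.5 and 20.5 to 60.1 TPM. The myeloid sums in Meox2-cre cells were 440 to 1217 TPM, above every Pax5+/+ library. The part of these lineages in the values of the family was not tested.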

How the data were processed

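The authors deposited 1 table of TPM values per library. Per the submitters' processing notes and the methods, reads were aligned with TopHat (1.4.1a; 5 libraries, mm9) or STAR (2.4.2a; 3 Meox2-cre libraries, mm10) and counted per gene with featureCounts (1.5.0) on RefSeq gene models. The use of strand was not given in the sources used here. TPM values sum to the same total in each library, so that read depth is unknown. Relative depth and the fewest reads behind a value were estimated from ratios of low TPM values between libraries (tolerance 0.03).

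Pax5-/- (n = 2) was contrasted with Pax5+/+ (n = 3) in limma (3.58.1, R 4.3.3; lmFit, eBayes with trend) on log2(TPM + 0.5). Genes entered when their mean exceeded 1 TPM in a genotype, with Benjamini-Hochberg adjustment over all genes tested. Genes were called at an adjusted p below 0.05, a change above 3-fold and a mean above 5 TPM in a genotype, leaving out 518 immunoglobulin and T cell receptor entries. Ratios were tested by exact permutation over the 10 placements of 2 libraries among 5. The code was tested on simulated data. Named genes were Pax5, the 5 members, up to 3 genes of each partner or target list with the largest change past the threshold, and the 3 nearest profiles of each tested member. Genes outside this rule are stated as named after their values were seen. Members and lists were chosen with earlier results of these data known. Entries were matched by the symbol before any suffix. The 3 Meox2-cre libraries entered no test. ChIP-seq samples were not analysed here.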

Additional observations from a re-analysis of the deposited data

How the results depend on the processing

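Ikzf3 stayed lower, past the threshold and called in every fit tried (pseudocounts, filters, trend, scalings, immunoglobulin and T cell receptor genes taken out, libraries left out), with adjusted p from 7.2e-05 to 0.0145. Its log2 fold change was -5.07 with a pseudocount of 0.1, -3.82 with 1, and -5.41 as the ratio of mean TPM, where that of Ikzf2 was -1.21 and that of Ikzf4 was 0.72. Ikzf1 did not pass the threshold in any fit, but its difference turned positive under median-ratio scaling (0.0949) and quantile normalization (0.0802), and leaving out single libraries gave -0.0618 to 0.0137. The median of all genes was -0.12 as deposited and near 0 under both scalings. Neither Ikzf5 nor, in fits without a filter added after the data were seen, Ikzf2 and Ikzf4 passed the threshold in any setting. At a change above 2-fold the calls numbered 753 lower and 630.0 higher, and with limma's treat test against 3-fold 153 and 118. Under both scalings the cereblon list had 0 lower genes. Leaving out single libraries, counts of lower genes ranged from 1 to 5 for NuRD, 0 to 1 for Sin3 and CtBP, 1 to 3 for BAF and 0 for cereblon, and of higher NuRD genes from 1 to 2. Where 1 Pax5-/- library was left out, the other was assumed to vary like the controls. No paired analysis was possible because nothing in the titles numbers or links the libraries. TPM without read counts, 2 mutant libraries and different gates limit what these values can resolve, most of all for Ikzf2 and Ikzf4.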
